A study of Homo sapiens with 8 samples.

Results

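The replication-dependent histone genes encode the linker histone H1 and the core histones H2A, H2B, H3 and H4. They were taken as every gene whose symbol has the form H1-, H2AC, H2BC, H3C or H4C followed by a number, or an older HIST1, HIST2 or HIST3 symbol. This gave 45 of the 17561 genes of the table, and 0 carried an older symbol. The values below cover 44 of them, namely 5 H1, 10 H2A, 12 H2B, 6 H3 and 11 H4 genes. Another 28 genes that GENCODE release 44 names by the same rule were not among the symbols of the table. The levels and differences below do not cover them. Some names fall under the rule without being typical of the group: H1-10 is a linker histone that is made outside S phase from polyadenylated mRNA, and H1-6 is a testis linker histone. The cells were HepG2, a human hepatocarcinoma line, grown in medium with serum, insulin and dexamethasone. They were harvested 48 h after transfection with pGRHL2, which carries a flag-tagged cDNA of the epithelial transcription factor Grainyhead-like 2 behind the EEF1A1 promoter together with enhanced GFP, or with pcDNA3 as the control. There were 4 libraries for each plasmid, numbered 1 to 4, and each comparison rests on 4 same-numbered pairs. Promoter, tag and GFP differ between the plasmids along with the insert, and pGRHL2 stands for all of these.

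Replication-dependent histone genes are switched on together as cells enter S phase, when new DNA has to be packed into nucleosomes, and their mRNA is removed when replication stops. Most lie in clusters, have no introns, and end in a short RNA stem-loop in place of a poly(A) tail. The stem-loop is bound by SLBP, the stem-loop binding protein, while NPAT is the coactivator that links cyclin E and CDK2 to their transcription. Some of these genes can also give a longer polyadenylated mRNA in differentiating or resting cells.

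The stem-loop is shown first because it is the feature by which these mRNAs are known to differ from other mRNAs. A run of the form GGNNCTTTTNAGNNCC, searched on the transcript strand, was found after the stop codon in 42 of 44 members, between 22 and 67 bases past the stop codon. In 41 of them it lay 3 to 18 bases before the end of the canonical transcript, whereas it was found in 0 of the 14208 other protein-coding genes of the table in the same window of 60 bases. The capitals mark the 2 arms of the stem and the lower-case letters the loop, written as DNA in hg38.
H2AC6, chr6:26124669-26124684, + strand, shared by 23 members: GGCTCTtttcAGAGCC
H2BC5, chr6:26158587-26158602, + strand, shared by 5 members: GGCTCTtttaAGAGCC
H4C8, chr6:26285131-26285146, - strand, shared by 7 members: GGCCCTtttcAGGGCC
H4C12, chr6:27831178-27831193, - strand, shared by 4 members: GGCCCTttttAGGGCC
The arms differed by family. All 11 H4 members had the arms GGCCCT and AGGGCC, while 29 of the 31 other members with a stem-loop had GGCTCT and AGAGCC. No such run was found in H1-10 or H3C6. In H2BC21 it lay 1729 bases before the end of the canonical transcript, which runs on past it.

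A poly(A) signal (AATAAA or ATTAAA in the last 50 bases) was present at the end of the canonical transcript of 4 of 44 members (9.09%), against 82% of the other protein-coding genes. Counting every annotated transcript, 16 members had at least one with such a signal in its last 50 bases. These were the linker histone gene H1-10, the H2A gene H2AC6, 8 of 12 H2B genes, the H3 genes H3C6 and H3C10, and 4 of 11 H4 genes. In H2BC9 and H4C11, the only annotated transcript also holds the stem-loop, 5 and 6 bases before its end. There the letters of the signal need not mark a poly(A) end.

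The upstream regions also followed the families, and those of H2BC4 and H2BC21 are printed because both genes lie head to head with an H2A gene and hold the octamer, CCAAT and TATAAA. RefSeq promoters (GRCh38.p14, 250 bases before to 50 after the start) were at hand for 42 members. The octamer ATTTGCAT, read on both strands, was present in 15 of 42 (35.7%), namely 9 of 12 H2B and 6 of 10 H2A promoters and 0 of those of H1, H3 and H4, against 1.36% of 12829 promoters. CCAAT was present in 32 of 42 (76.2%, against 35.9%), with 1 of 10 among H4. TATAAA was present in 29 of 42 (69%, against 6.71%). In 6 head-to-head pairs of an H2A and an H2B gene, with starts 193 to 247 bases apart, the windows of both genes overlap. The same stretch can then count for both genes, so that these promoters are not separate counts. Both genes held the octamer in H2BC4 and H2AC6, H2BC8 and H2AC8, H2BC11 and H2AC11, and H2BC21 and H2AC20. The Grainyhead-type motif AACCNGGTT was present in 0 of 42, against 0.187% of all promoters, which says only that these letters are not in this window. Capitals mark the octamer, CCAAT and TATAAA on either strand, and no 2 of these motifs overlap in the printed sequences.
H2BC4, chr6:26123877-26124176, - strand: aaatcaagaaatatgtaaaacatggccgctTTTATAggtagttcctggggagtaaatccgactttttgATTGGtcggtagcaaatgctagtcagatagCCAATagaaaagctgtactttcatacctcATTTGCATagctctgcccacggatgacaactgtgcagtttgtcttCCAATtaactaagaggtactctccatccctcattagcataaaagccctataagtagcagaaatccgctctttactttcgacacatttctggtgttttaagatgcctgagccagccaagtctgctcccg
H2BC21, chr1:149886633-149886932, - strand: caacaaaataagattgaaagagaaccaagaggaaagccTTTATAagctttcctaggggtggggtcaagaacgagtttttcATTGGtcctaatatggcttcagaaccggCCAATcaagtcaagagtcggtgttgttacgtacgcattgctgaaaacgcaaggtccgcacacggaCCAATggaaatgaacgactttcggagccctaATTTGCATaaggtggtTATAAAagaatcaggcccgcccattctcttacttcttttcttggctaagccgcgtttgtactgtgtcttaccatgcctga
In both, the octamer stands on the forward strand ahead of the start, and the reversed TATAAA at the far end reads on the strand of the H2A neighbour.

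The labelled cells and transfection were checked once. All 8 hepatocyte markers were in the table, with means between 9.83 (TTR) and 17.1 (AFP). Of 8 markers of immune, endothelial and fibroblast cells, PECAM1, COL1A1 and PDGFRB were in the table at 5.08 to 5.82, below the median of all genes. GRHL2 ranged from 16.2 to 16.9 in the pGRHL2 libraries and from 6.61 to 7.25 in the pcDNA3 libraries (log2 difference 9.48, adjusted p = 4.8e-08, limma). Library medians ran from 6.71 to 6.73. The depth is unknown since no counts were used.

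With regard to levels, the histone genes spanned a wide range in HepG2 cells. Values are log2 and per transcript length, as means of 8 libraries. The members had a median of 4.80, against 6.72 for all genes, and 20 of 44 (45.5%) stood at 5 or more, against 61.8% of all genes. H2AC6 (9.39) stood above 81.2% of all genes and made up 20.3% of the summed level of the 44 genes on the linear scale. H1-2 (9.13), a linker histone made in S phase, made up 16.8%. H1-10 (8.08), H2BC5 (7.79), H3C10 (7.40), H2BC4 (7.37) and H2BC21 (7.15) completed the genes above 7, while H1-3 (1.30) and H4C9 (1.75) were the lowest. Family medians lay close together, at 4.30 for H1, 4.86 for H2A, 5.03 for H2B, 4.46 for H3 and 4.95 for H4.

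Levels differed along the annotated transcript ends. The 16 members with a poly(A) signal at the end of an annotated transcript had a median level of 5.59, with 10 of 16 (62.5%) at 5 or more. The 28 without one had a median of 4.18, with 10 of 28 (35.7%) at 5 or more. Of the 7 genes above 7, all but H1-2 belonged to the first set. The labels name an mRNA library kit and do not say how mRNA was selected, so that a level here need not be the level in the cell for mRNA that ends in a stem-loop. The authors' division by mean transcript length also lowers a gene with long annotated transcripts relative to one with a single short transcript, and 29 of 44 members had a single transcript.

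**Figure D1:**
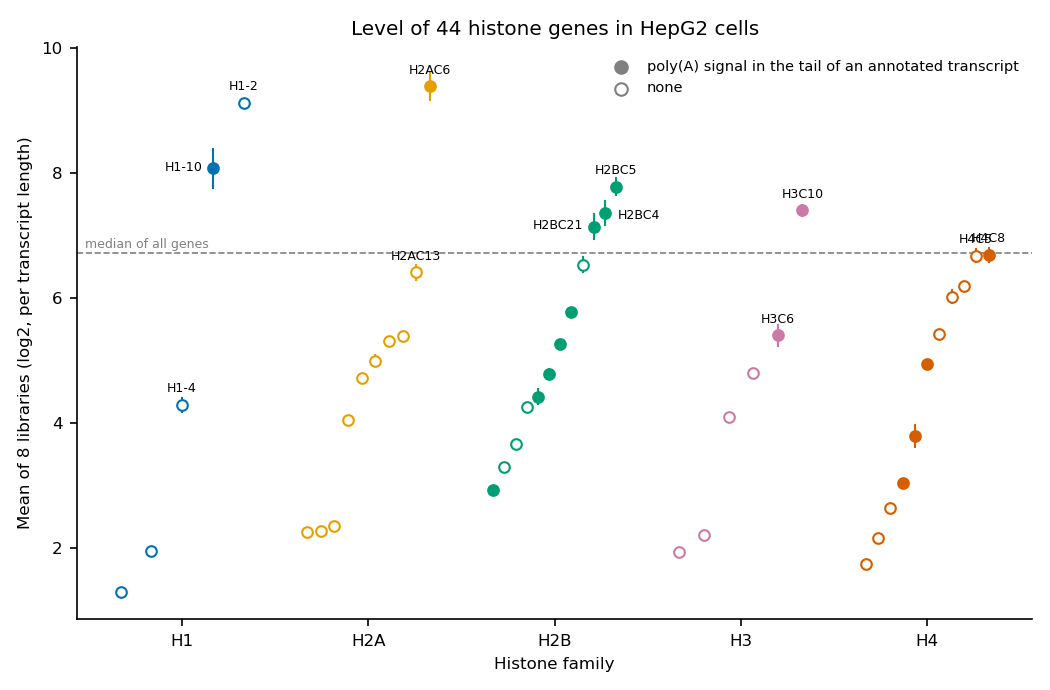
Each point is the mean log2 value per transcript length of 1 histone gene over 8 libraries, with a line from its lowest to its highest library, arranged by family along the x axis. Filled points have a poly(A) signal at the end of an annotated transcript, and 6 of the 7 genes above 7 are filled, the exception being H1-2. The dashed line is the median of all genes, 6.72.

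Near-identical copies limit some of these values. In 8 members, H2AC13, H2AC14, H2AC18, H2AC19, H4C11, H4C12, H4C14 and H4C15, at least 50% of the 100-base windows of the transcripts recur exactly in another annotated gene. H2AC18 and H2AC19, as well as H4C14 and H4C15, have coding sequences that are 100% identical, and the first of these pairs stood at 2.26 and 2.28 and the second at 3.04 and 3.79. The median of the 8 was 4.26. Without them, the contrast by poly(A) signal was 6.69 (13 members) against 4.10 (23 members). The authors counted only reads above a minimum alignment quality, and its part in these values was not tested.

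The comparison of pGRHL2 with pcDNA3 asks whether 48 h of GRHL2 expression altered histone gene expression. None of the 44 members passed the test, in either direction. Of the 17561 genes, 385 (2.19%) were called by limma at an adjusted p under 0.05, with replicate numbers as blocks. Of all genes, 297 (1.69%) were called higher and 88 (0.501%) lower in pGRHL2, against 0 and 0 of 44 members. At an unadjusted p under 0.05 there was 1 member (2.27%), H1-4, with lower values in pGRHL2, against 16% of all genes. The count of members called is therefore not above the background, and the share at an unadjusted p is below it. Without the replicate block, the count was again 0 of 44, with 18.5% of all genes called, and at an unadjusted p under 0.05 there were 8 members (18.2%), against 32.8% of all genes.

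The differences were small and went both ways. The members' log2 differences (pGRHL2 minus pcDNA3) had a median of -0.00031, with 21 above 0 and 23 below, between -0.18 (H1-10) and 0.15 (H2BC21). Over all genes the median was 0.0017, with 9042 of 17561 above 0. At a level of 5 or more, 13 of 20 members were above 0 (median 0.041), against 4907 of 10858 genes (median -0.010). Below 5, 8 of 24 members were above 0 (median -0.0055), against 4135 of 6703 genes (median 0.0078). The median size of a difference, whichever its sign, was 0.025 for members and 0.040 for all genes. Among genes at a level of 5 or more, the median size was 0.061 for the 20 members and 0.060 for 10858 genes. Below 5, it was 0.012 for the 24 members and 0.020 for 6703 genes. The 95% interval of the difference stayed within 0.5 of 0 in 44 of 44 members and within 0.25 of 0 in 39 of 44. The deposited values come from a transformation that draws the differences of weakly read genes towards 0, and its part in the narrow intervals of the low members was not tested.

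**Figure D2:**
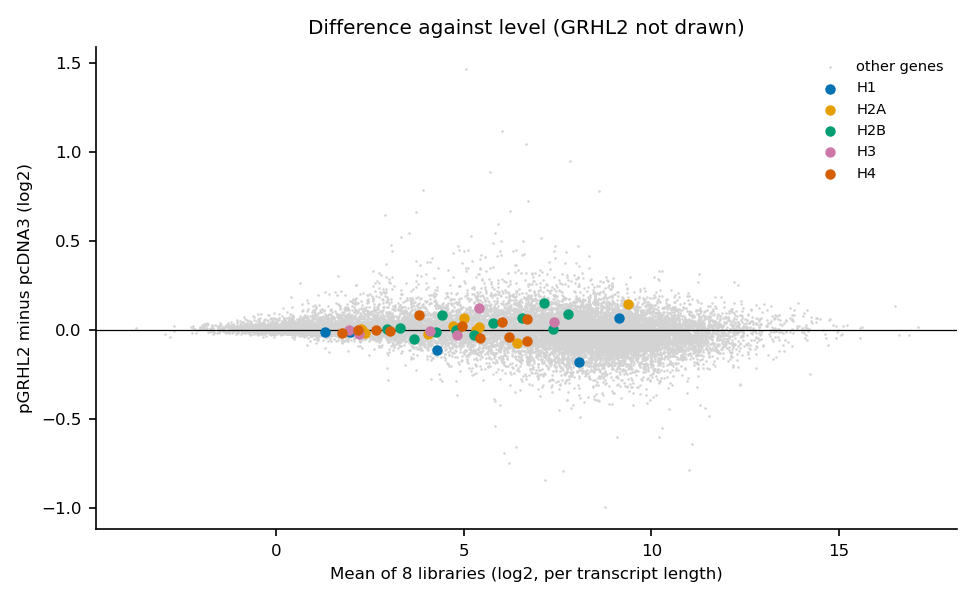
The log2 difference between pGRHL2 and pcDNA3 (y axis) is plotted against the mean log2 level (x axis) for the other genes in grey, GRHL2 left out, and for the 44 histone genes coloured by family. The histone genes lie between -0.18 and 0.15, inside the cloud of the other genes at the same level.

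The plasmid groups did not overlap in 2 members (4.55%), against 23.9% of all genes. H3C6 was higher in pGRHL2 in all 4 pairs (1 member, against 13.4% of genes). H3C3 was lower in all 4 pairs (1 member, against 10.5%). Because same-numbered libraries mirror each other in this table, groups that do not overlap and 4 pairs of 1 sign are the same thing here. In bulk RNA, fewer cells in S phase and less histone mRNA per cell cannot be told apart.

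The linker histones, which bind the DNA between nucleosomes, held the member with an unadjusted p under 0.05. H1-4 (chr6:26156329-26157115, + strand), an S phase linker histone, read 4.28, 4.19, 4.19 and 4.30 in pGRHL2 and 4.31, 4.41, 4.40 and 4.29 in pcDNA3. The groups overlapped, since pair 4 was level and pairs 2 and 3 carried the difference of -0.11 (95% interval -0.22 to -0.0095, adjusted p = 0.27). H1-10 (chr3:129314771-129316286, - strand) read 8.09, 8.04, 7.76 and 8.06 in pGRHL2 and 8.06, 8.11, 8.39 and 8.09 in pcDNA3. Pair 3 alone, at -0.64, set its mean of -0.18 (95% interval -0.42 to 0.061, adjusted p = 0.47), and the other 3 pairs lay between -0.072 and 0.032, with a mean of -0.024. Of the exon bases of H1-10, 22.8% are shared with its antisense gene H1-10-AS1, and counting did not use strand. The other members with over 10% of exon bases shared with another annotated gene were H3C12 (40.3%), H2BC4 (30.9%), H2BC6 (28.2%) and H4C8 (13.3%), and the part of this sharing in their values was not tested. H1-2 (chr6:26055740-26056470, - strand) read 9.16, 9.12, 9.17 and 9.19 in pGRHL2 and 9.09, 9.13, 9.08 and 9.06 in pcDNA3. It was higher in pairs 1, 3 and 4 and its groups overlapped through pair 2 (difference 0.067, 95% interval -0.061 to 0.19, adjusted p = 0.63). H1-3 and H1-6 were low and within 0.011 of 0.

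H2A and H2B form the outer dimers of the nucleosome. H2AC6 (chr6:26124145-26139116, + strand) read 9.35, 9.36, 9.60 and 9.53 in pGRHL2 and 9.43, 9.42, 9.17 and 9.24 in pcDNA3. It was lower in pairs 1 and 2 and higher in pairs 3 and 4, so that the groups overlapped (difference 0.14, 95% interval -0.065 to 0.35, adjusted p = 0.51). H2AC13 (chr6:27808173-27808667, + strand) read 6.40, 6.38, 6.43 and 6.30 in pGRHL2 and 6.42, 6.45, 6.40 and 6.53 in pcDNA3. Its groups overlapped as well, with a difference of -0.071 (95% interval -0.20 to 0.055, adjusted p = 0.60), and pair 4 was the lowest at -0.23. The other 8 H2A members lay between -0.024 and 0.069.

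H2BC21 (chr1:149884459-149886682, - strand), known to give a polyadenylated mRNA, read 7.22, 7.11, 7.22 and 7.34 in pGRHL2 and 7.07, 7.19, 7.08 and 6.95 in pcDNA3. It had the highest difference of the members, 0.15 (95% interval -0.019 to 0.32, adjusted p = 0.37), with pair 2 going the other way. H2BC5 (chr6:26158122-26171349, + strand) read 7.84, 7.65, 7.91 and 7.93 in pGRHL2 and 7.73, 7.92, 7.66 and 7.65 in pcDNA3. Pair 2, at -0.27, again stood against the other 3, and the difference was 0.092 (95% interval -0.11 to 0.30, adjusted p = 0.70). The other 10 H2B members lay between -0.048 and 0.086, and the family as a whole was uneven by pair: its median was 0.11 in pair 3, where 8 of 12 members were higher, and -0.048 in pair 2, where 3 of 12 were.

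**Figure D3:**
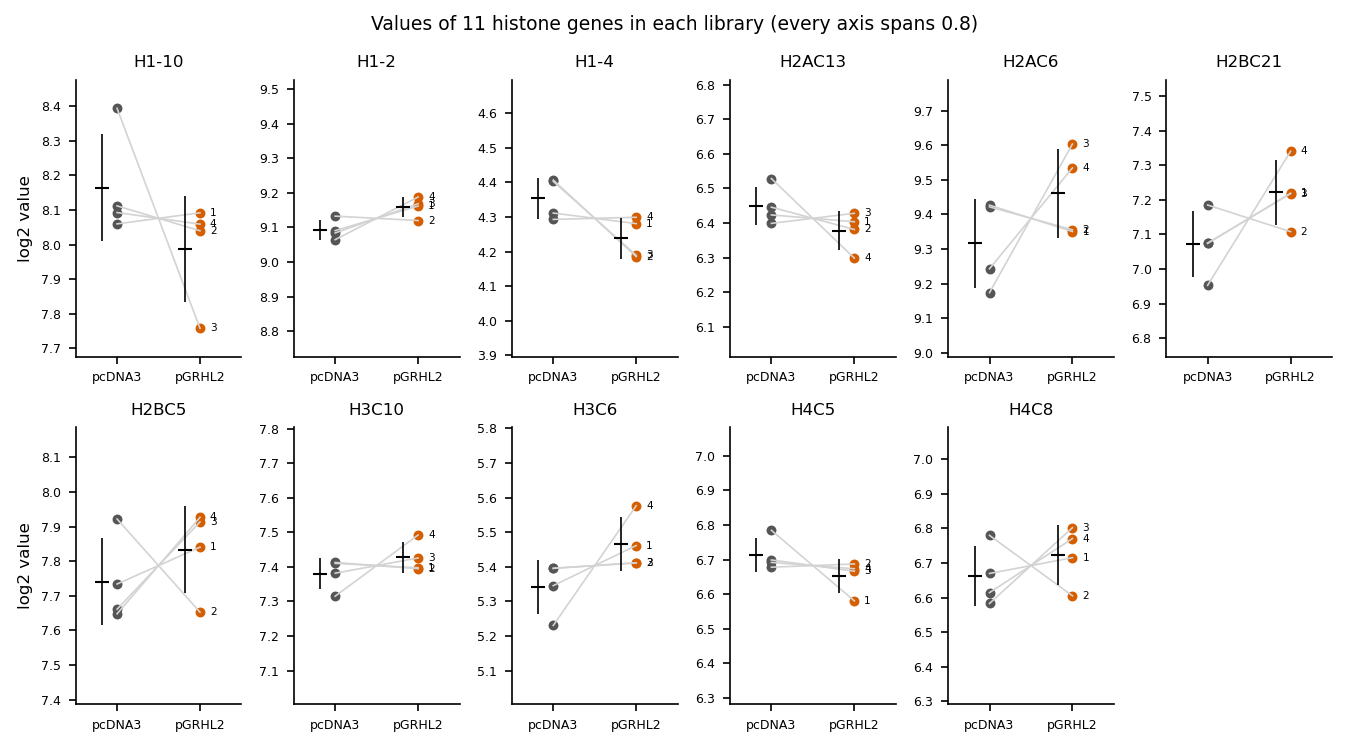
Each panel shows the log2 values of 1 histone gene in the 4 pcDNA3 libraries (grey) and the 4 pGRHL2 libraries (orange, with their numbers), grey lines join same-numbered libraries, and the bar beside each group is its mean with SD (n = 4). Because replicate means had been removed from the table, both bars of a gene have the same SD. It reflects only the spread of the pair differences, not that between replicates. Every y axis spans 0.8. Only in H3C6, of the 11 genes drawn, do the groups not overlap.

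H3 and H4 form the core tetramer. H3C6 (chr6:26224199-26227473, + strand) read 5.46, 5.41, 5.41 and 5.58 in pGRHL2 and 5.35, 5.40, 5.40 and 5.23 in pcDNA3. Every pGRHL2 library stood above every pcDNA3 library, though pairs 2 and 3 differed by only 0.016 each, and the difference of 0.12 (95% interval -0.011 to 0.26) had an adjusted p of 0.36. An exact two-sided sign-flip permutation test gave p = 0.125, which is the smallest that 4 pairs allow. H3C10 (chr6:27810051-27811300, + strand) read 7.40, 7.39, 7.43 and 7.49 in pGRHL2 and 7.41, 7.41, 7.38 and 7.32 in pcDNA3, with overlapping groups (difference 0.048, 95% interval -0.081 to 0.18, adjusted p = 0.76). H3C3 had the other set of groups that did not overlap, with pairs from -0.052 to -0.011 (difference -0.031, adjusted p = 0.74).

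H4C8 (chr6:26277609-26285638, - strand) read 6.72, 6.61, 6.80 and 6.77 in pGRHL2 and 6.67, 6.78, 6.58 and 6.61 in pcDNA3. It was higher in 3 of 4 pairs and lower in pair 2 (difference 0.062, 95% interval -0.095 to 0.22, adjusted p = 0.74). H4C5 (chr6:26204610-26205021, + strand) read 6.58, 6.69, 6.67 and 6.67 in pGRHL2 and 6.78, 6.68, 6.70 and 6.69 in pcDNA3. Pair 1, at -0.20, stood apart from 3 pairs near 0, and the groups overlapped (difference -0.061, 95% interval -0.18 to 0.061, adjusted p = 0.65). The other 9 H4 members lay between -0.045 (H4C3) and 0.087 (H4C15), the latter set by 0.35 in pair 3 and by values of 0.019 or less in the others. Family medians of the difference were -0.011 for H1, 0.0036 for H2A, 0.0072 for H2B, -0.0047 for H3 and -0.0028 for H4.

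**Figure D4:**
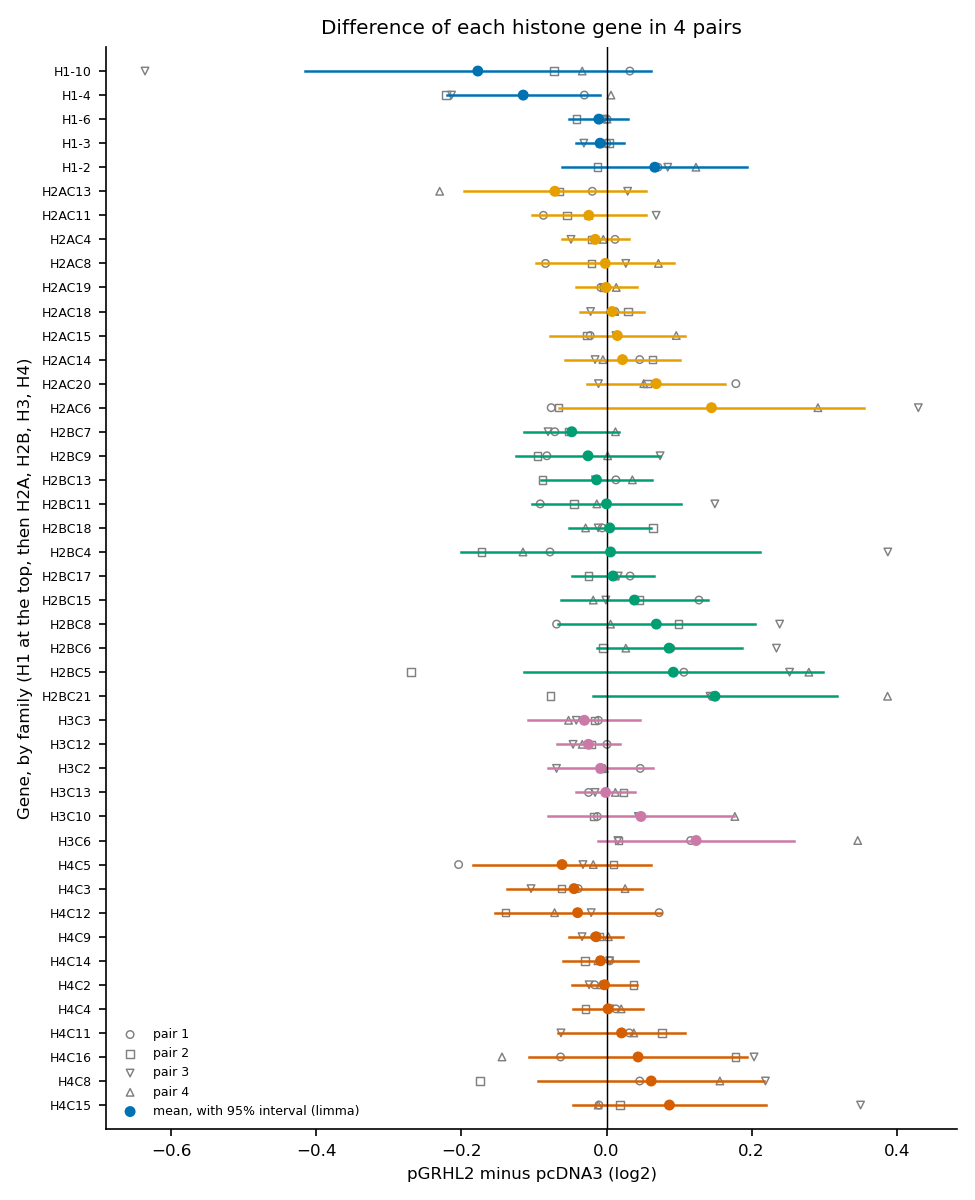
For each of the 44 histone genes, grouped by family with H1 at the top, open grey symbols give the log2 difference in each of the 4 pairs, and the filled point and line give the mean with its 95% interval from limma (x axis). In 23 of 44 genes all 4 pairs lie within 0.1 of 0, and pair 3 of H1-10, at -0.64, is the farthest from 0.

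By position, the gene clusters gave median differences near 0. The 21 members at chr6:26026896-26285638 had a median of -0.0028, the 13 at chr6:27125897-27893891 one of -0.000032, and the 8 at chr1:149782689-149887411 one of 0.0060. In 6 pairs, an H2A and an H2B gene start within 500 bases of each other on opposite strands, 193 to 247 bases apart. In H2BC4 and H2AC6, whose shared upstream region is printed above, pair 3 gave 0.39 and 0.43, pairs 1 and 2 were below 0 in both genes, and pair 4 gave -0.12 and 0.29. H2BC11 and H2AC11 went the same way in 4 of 4 pairs, with differences of -0.000032 and -0.024. H2AC15 and H2BC15 went opposite ways in all 4 pairs. The signs agreed in 1 of 4 pairs for H2BC13 and H2AC13, in 2 of 4 for H2BC21 and H2AC20, and in 3 of 4 for H2BC8 and H2AC8.

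Members with and without a poly(A) signal at the end of an annotated transcript are set side by side as a description. The 16 with a poly(A) signal had a median difference of 0.043, with 12 above 0, and the 28 without had one of -0.0086, with 9 above 0. By pair, the medians of the first set were 0.018, -0.037, 0.11 and 0.014, so that they did not keep 1 sign. Members with and without a signal also differed in level, with medians of 5.59 and 4.18. Split by level alone, 13 of 20 members at 5 or more were above 0 (median 0.041). Below 5, 8 of 24 were (median -0.0055). The part of level in the contrast by signal was not tested.

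The factors that make and process histone mRNA were then examined as a list of 23 genes. None was called, 18 of 23 differences were below 0, and the median was -0.066, against -0.010 for all genes at 5 or more. At an unadjusted p under 0.05 there were 6 (26.1%), against 15% of genes at 5 or more. Values were lower in pGRHL2 in all 4 pairs for 8 of 23 (34.8%), against 13.6% of genes at 5 or more. HINFP, a transcription factor of H4 genes, differed by -0.19 (adjusted p = 0.13), and LSM11, of the U7 particle that cuts histone pre-mRNA, by -0.12 (adjusted p = 0.21). SLBP went the other way, at 0.10 with 4 of 4 pairs higher (adjusted p = 0.39). NPAT (0.027) and its partner CASP8AP2 (-0.019) were near 0.

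The nearest of the list to the threshold, chosen after their values were seen, were ZNF473, a zinc-finger protein of the same U7 step, at -0.25 (adjusted p = 0.056), ERI1, an exonuclease that acts on the stem-loop end, at -0.25 (adjusted p = 0.093) and SRRT, which links the cap-binding complex to processing, at -0.17 (adjusted p = 0.095). When libraries were weighted by their quality (arrayWeights of limma), ZNF473 and ERI1 passed the threshold, with adjusted p of 0.035 and 0.049. Across 4 leave-one-out fits the adjusted p ran from 0.098 to 0.23 for ZNF473 and from 0.11 to 0.41 for ERI1.

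None of the 9 genes listed as replication-independent histone variants was called, and their median was -0.030, or 0.011 without pair 3. Their values were lower in 9 of 9 genes in pair 3 (median -0.20), as was H1-10, and in 3 to 5 of 9 genes in the other pairs. H3-3B, which encodes the replacement histone H3.3, differed by -0.12 (adjusted p = 0.24), its twin H3-3A by 0.039, H2AX, which is phosphorylated at DNA breaks, by -0.11 and H2AZ1, of promoter nucleosomes, by -0.014. Among 20 chaperones and assembly factors, which carry histones to DNA, 0 were called and the median was -0.033, or -0.0047 without pair 4. Of the 20, 18 stood at 5 or more. At an unadjusted p under 0.05 there were 4 (20%, against 15% of genes at 5 or more). ASF1A, UBN1 and SSRP1 were lower in pGRHL2, and NAP1L4 was higher, with the largest difference of the list at 0.25.

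The S phase and replication list, 22 genes such as PCNA (0.059) and the MCM helicase, had 0 called and a median of -0.0067, yet its values varied from pair to pair. The number of its genes that were higher in pGRHL2 was 17, 21, 8 and 1 of 22 in pairs 1 to 4, with medians of 0.051, 0.17, -0.054 and -0.16. The histone members had 22, 14, 21 and 25 of 44 higher, with medians of -0.0027, -0.021, -0.0018 and 0.0041. In pair 2 the S phase list thus had its most genes higher and the histone members their fewest (31.8%). All 22 S phase genes stood at 5 or more, and the 20 histone members at that level had 45%, 30%, 70% and 65% higher in pairs 1 to 4, against 45.9% to 48% of all genes at 5 or more. With 4 pairs this is a description.

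**Figure D5:**
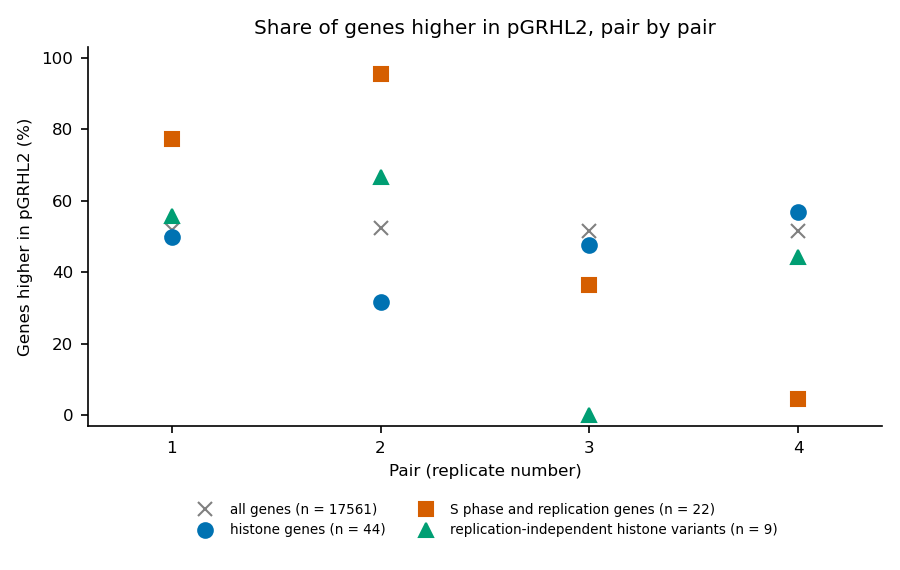
The y axis gives the percentage of genes with a higher value in pGRHL2 than in pcDNA3 in each of the 4 same-numbered pairs (x axis), for all genes, the 44 histone genes, 22 S phase and replication genes and 9 replication-independent histone variants. The 44 histone genes run from 31.8% to 56.8%, and the 20 of them at a level of 5 or more, not drawn apart, from 30% to 70%, while the S phase list runs from 95.5% in pair 2 to 4.5% in pair 4 and the variants are at 0 in pair 3.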

How the data were processed

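Paired-end mRNA sequencing covered HepG2 cells that received pGRHL2 or pcDNA3. The 4 libraries of each plasmid were grouped by their labels and are described in the study as biological replicates. According to the methods, the authors aligned reads to hg38, counted those over exons with HTSeq (0.9.1 in the submitters' processing notes) in union mode without strand, dropped genes with hardly any reads, transformed the counts with rlog (DESeq2) and scaled them by mean transcript length. Although its name says FPKM, the deposited table holds log2 values, of which 3.71% are below 0; 1 stray character was removed. No counts were at hand, so that depth is unknown.

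Within a gene, the 4 pairs of same-numbered libraries had 1 common mean, in 17561 of 17561 genes (spread of at most 1.5e-13). Replicate means had thus been removed, a step the methods do not describe, and the pairing could not be checked by correlation, which is -1 by construction. The replicate number was therefore kept as a block (3 residual degrees of freedom, against 6 without it). All genes were fitted with limma 3.58.1 (lmFit, eBayes with trend, R 4.3.3) with Benjamini-Hochberg adjustment over all genes and a threshold of 0.05. The fit was also run on simulated data, and the outcome is not given here. The members, lists and tests were chosen with earlier results of these data known.

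Values in each library were given for members called, the highest member of each family, the 4 highest and 4 lowest differences, and H1-10 and H2BC21. One of the 45 members is not reported here, and counts over members cover 44. From the lists, SLBP, NPAT, CASP8AP2, LSM11, HINFP, PCNA, H2AZ1, H2AX, H3-3A and H3-3B were named, and 74 of 78 listed genes were in the table. Stem-loops, poly(A) signals and shared windows were searched in GENCODE release 44 transcripts, and promoters were RefSeq's (GRCh38.p14).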

Additional observations from a re-analysis of the deposited data

Results flagged for a closer look

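One of 32 results tested had a pair far from the others. For H1-10, the difference between pGRHL2 and pcDNA3 was -0.64 in pair 3, and the other 3 pairs had a median of -0.034. Its gap to the nearest pair was 0.844 of the whole range. Chance gives such a pair in about 1 of 20 results. In the same pair, 9 of 9 replication-independent histone variants had lower values in pGRHL2. The cause was not tested.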

How the results depend on the processing

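None of the 44 members was called under any alternative run. The fit without the replicate block called 1821 genes higher and 1427 lower (297 and 88 with the block). It called 8, 1 and 3 genes of the processing, variant and chaperone lists. Among them were LSM11, HINFP and H3-3B, lower in pGRHL2, and SLBP, higher in pGRHL2. Since replicate means had been removed, this fit counts degrees of freedom the table no longer has. Weighted libraries gave 503 genes higher and 221 lower, with 2 called in the processing list. An adjusted p under 0.01 gave 77 and 10.

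Counts of members with 1 sign in all pairs (1 higher, 1 lower) moved with centring. Centring on medians gave 5 lower. Equal library totals without GRHL2 gave 495 genes called higher, 4 members higher and 0 lower, and medians of 0.013 for members and 0.011 for H4, where the median of all genes moved alike, from 0.0017 to 0.015. Removing trends on level, transcript length and GC content gave 163 genes called higher, 9 members lower, and medians of -0.024 for members, -0.022 for H2A, -0.031 for H3 and -0.021 for H4. With genes at 5 or more, 63 genes were called higher and 0 members were lower in all pairs. Medians were then 0.041 for 20 members, -0.055 for 2 H1, 0.086 for 2 H3 and -0.040 for 5 H4 members.

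Leaving out 1 pair gave 79 (without pair 1) to 156 (without pair 4) genes called higher and 8 to 68 lower, with the same extremes. Members higher in all remaining pairs numbered 1 to 8 (8 without pair 2) and those lower 4 to 6, which 3 pairs allow more often than 4. The median of the processing list ranged from -0.082 to -0.033, the latter without pair 4. The medians of the other lists ranged from -0.073 (without pair 2) to 0.011 (without pair 3) for the variants, from -0.050 to -0.0047 (without pair 4) for the chaperones and from -0.049 (without pair 2) to 0.046 (without pair 4) for the S phase list. NPAT ranged from -0.0073 (without pair 3) to 0.076, CASP8AP2 from -0.090 to 0.085 (without pair 4), H2AZ1 from -0.073 to 0.072 (without pair 3), H2AX from -0.19 to 0.011 (without pair 3), and H3-3A from -0.0086 (without pair 2) to 0.12. CASP8AP2 was also above 0 with trends removed (0.015), as was H2AZ1 (0.0057), which was above 0 with weighted libraries too (0.00084). The 11 histone genes given in each library kept their direction under every alternative run. Leaving out the 8 members with many shared windows, chosen after seeing the data, moved no median or count beyond these limits. Where not stated, the cause was not tested. Unknown depth and the transformation, which shrinks weakly read genes, limit how small a difference among the low histone genes could be seen.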
